A study of Homo sapiens with 4 samples.

Results

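The genes described here encode nucleolar factors that make ribosomes. They were chosen by name, with earlier results of these data known: 33 genes of ribosomal RNA (rRNA) transcription, processing and assembly. Counts of these genes set against shares of all genes are therefore descriptive. A gene was measured where the array maker's platform annotation gave its symbol alone to a probe set, the group of short oligonucleotides that reads 1 transcript. This held for 25 of the 33 genes, with 37 probe sets, out of 11963 genes in all. NOP56, DKC1, BOP1 and PPAN were named only together with other genes, mostly the small RNAs in their introns, and were not used here. POLR1A, NOP58, EBNA1BP2 and GNL3 had no probe set under their names in the annotation used here.

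RNA came from 2 human leukemia lines, BV-173 and SUP-B15, in which the Philadelphia chromosome encodes the fusion kinase BCR-ABL1. There were 4 groups of 1 array each: BV-173 with 10 μmol/l STI571 for 16 h, BV-173 without it, SUP-B15 with 10 μmol/l STI571 for 16 h, and SUP-B15 without it. STI571 (imatinib) inhibits the BCR-ABL1 kinase, and the design asks how expression responds to it. Each line is a single established culture, so a difference between the lines is one between these 2 cultures, and a change in a bulk sample cannot tell fewer cells of a kind from less RNA per cell.

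Ribosomes are built in the nucleolus. RNA polymerase I copies the ribosomal genes into a long precursor, small nucleolar ribonucleoproteins (snoRNPs) guide its chemical modification, and the small subunit processome and the large subunit factors cut, fold and package it with ribosomal proteins. Many of these genes are known targets of MYC, which binds the DNA letters CACGTG (the E box) together with MAX, and rRNA output follows growth signals in proliferating cells.

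The letters CACGTG were searched for in the window from 250 bases before to 50 after each annotated start site, from RefSeq (GRCh38.p14). Windows were available for 21 of the 25 measured genes, and 11 of them held the motif, against 13.3% of the 6549 compared genes with a window and 8.77% of all 27305 genes in that table. The motif reads the same on both strands. Some of the stretches are shown because this motif was found in a larger share of these genes than of the compared genes. The E box is in capitals, and each line runs 5′ to 3′ on the strand of the gene.

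RRP9, chr3:51941892-51941921, minus strand: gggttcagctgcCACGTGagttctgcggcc
UTP20, chr12:101280083-101280112, plus strand: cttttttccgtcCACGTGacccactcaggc
DDX21, chr10:68956604-68956633, plus strand: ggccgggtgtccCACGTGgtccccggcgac
WDR43, chr2:28894658-28894687, plus strand: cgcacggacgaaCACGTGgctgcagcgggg
FBL, chr19:39846356-39846385, minus strand: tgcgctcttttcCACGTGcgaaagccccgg
PES1, chr22:30591880-30591909, minus strand: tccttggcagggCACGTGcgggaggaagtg
NOP14, chr4:2963374-2963403, minus strand: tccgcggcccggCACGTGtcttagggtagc

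In RRP9, UTP20 and DDX21 the motif began 5, 10 and 31 bases upstream of a start site, and in WDR43, FBL, PES1 and NOP14 it began 4 to 16 bases into the transcript. MYBBP1A, BYSL, GAR1 and NOP2 held it further in, between positions 28 and 36. The ETS core CCGGAAG, on either strand, was found for 9 of the 21 genes with a window, against 22.6% of compared genes. The SP1 box GGGCGG was found for 15, against 76.6%, and the NRF1 motif for 1, against 2.82%. A match describes the letters of a window and is no evidence of binding.

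The signal of a probe set, in the authors' scaled units, was high for most of these genes. The brightest probe set of each gene was used for tests, and its signal over the 25 genes ranged from 164 to 39211 with a median of 1793.6 in STI571 BV-173, and from 193 to 32572.5 with a median of 2142 in untreated BV-173. In SUP-B15 the range was 69.1 to 28055.5 with a median of 891 with STI571, and 146 to 36866 with a median of 1194 without it. All 25 passed the filter on low values, which asks for a signal at or above the array's median in at least 1 array. Signals of different probe sets depend on their oligonucleotides, so levels are compared between arrays and not between genes.

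The arrays were similar in RNA quality and differed in rRNA signal. The 3' to 5' ratio, which rises as RNA degrades, lay between 1.12 and 1.20 for GAPDH and between 2.08 and 2.40 for ACTB. Control probe sets for 18S rRNA averaged 2817 in STI571 BV-173, against 1596 in untreated BV-173, and 1513 in STI571 SUP-B15, against 1577 in untreated SUP-B15. Those for 28S rRNA averaged 5742 with STI571 against 4745 untreated in BV-173, and 3587 with STI571 against 2532 untreated in SUP-B15. The labelling starts from polyadenylated RNA by the maker's standard method, so these are not rRNA levels, and their part in the results was not tested. All 8 measured precursor B cell markers passed the filter on low values, MME and CD34 through SUP-B15 alone. In BV-173 these gave 18.3 and 103.9 with STI571 and 7.2 and 11.8 untreated, under array medians of 107.6 and 95.5. The summed signal of the 8 ran from 9255 to 50606, the latter with 29317 from DNTT. Called higher with STI571 were 4 of them (CD34, CD79B, VPREB1 and DNTT), against 1.43% of all genes. In both lines 6 of the 8 were higher and 1, CD79A, was lower. The filter was passed by 0 of 5 T cell, 1 of 5 myeloid, 1 of 3 erythroid and 2 of 5 NK cell markers. Their summed signals were 97.9 to 214, 88.5 to 273, 123 to 215 and 258 to 483.

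**Figure D1:**
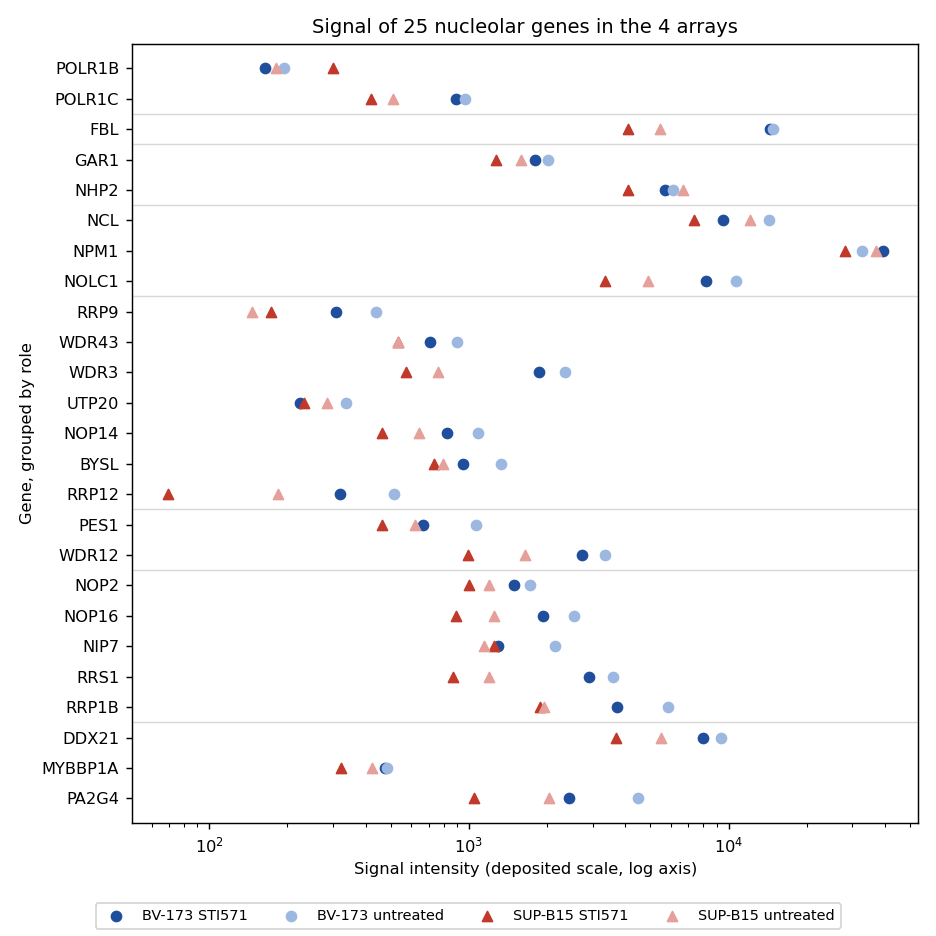
Signal intensity (log axis) of the 25 measured genes, grouped by role, in the 4 arrays. Each symbol is 1 array; for 20 genes both SUP-B15 triangles lie left of both BV-173 circles, and PA2G4 shows the STI571 array left of its untreated partner in both lines.

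The first comparison asked how the nucleolar genes responded to STI571 in both lines. Most had lower signal with STI571, by small amounts. The change, as a difference of log2(signal + 24.5), was negative in both lines for 20 of the 25 genes and positive in both for 0, against 26.5% and 28.9% of the 7916 genes compared. BV-173 had a median of -0.33 and SUP-B15 one of -0.40, beside 0.05 and -0.01 over all genes. Only PA2G4 passed the test of the mean response over both lines (limma, Benjamini-Hochberg adjusted p under 0.05 over all 7916 genes), so 1 of 25 fell and 0 rose, against 1.63% of all genes called lower and 1.43% called higher. At an unadjusted p under 0.05 there were 7 of the 25 genes, against 979 of all 7916 genes.

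By size in single lines, which has no test with 1 array per group, 6 of the 25 genes were at least 1.5-fold lower in BV-173 and 5 in SUP-B15, against 11.3% and 14.3% of all genes. At least 1.5-fold higher were 0 in BV-173 and 1 in SUP-B15, against 16.0% and 11.9%. By the brightest probe set of each gene, a change of 2-fold was reached by RRP12 in SUP-B15 alone. In the authors' scaling the response was lower in SUP-B15 than in BV-173 for 17 of the 25 genes, against 54.3% of all genes. Which line responded more depended on that scaling. Setting the arrays to a common median put the typical nucleolar gene at -0.50 for BV-173, below -0.29 for SUP-B15. The difference in response was not tested. The limits are that the 2 lines are the only repeats of the contrast, and that limma took each gene's error wholly from the trend of spread over brightness, with 1 residual degree of freedom.

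PA2G4 encodes a growth-regulated nucleolar RNA-binding protein (EBP1). Its signal was 2430.2 in STI571 BV-173, against 4484 in untreated BV-173, and 1047 in STI571 SUP-B15, against 2042 in untreated SUP-B15. Each treated array was close to a factor of 1.9 below its partner, 1.84-fold in BV-173 and 1.93-fold in SUP-B15, although STI571 BV-173 remained above untreated SUP-B15. The mean change was -0.91 (SE 0.21, adjusted p = 0.001), BV-173 giving -0.88 and SUP-B15 -0.95. A second probe set gave 1939.8 with STI571 against 2587 untreated in BV-173, and 1033 with STI571 against 1798.5 untreated in SUP-B15, with changes of -0.41 and -0.79. Averaging both probe sets ended the call (adjusted p = 0.0518), as it did with gene-specific probe sets alone, which leave only the second one (adjusted p = 0.087), without the intensity trend (0.548) and without the cell line term (0.99994). The 120 bases before its start site, shown as those of the 1 gene that passed, held none of the 4 motifs, which says only that these letters are not in this stretch.

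PA2G4, chr12:56104439-56104558, plus strand: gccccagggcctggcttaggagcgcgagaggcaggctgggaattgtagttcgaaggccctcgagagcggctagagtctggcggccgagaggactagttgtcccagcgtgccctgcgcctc

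**Figure D2:**
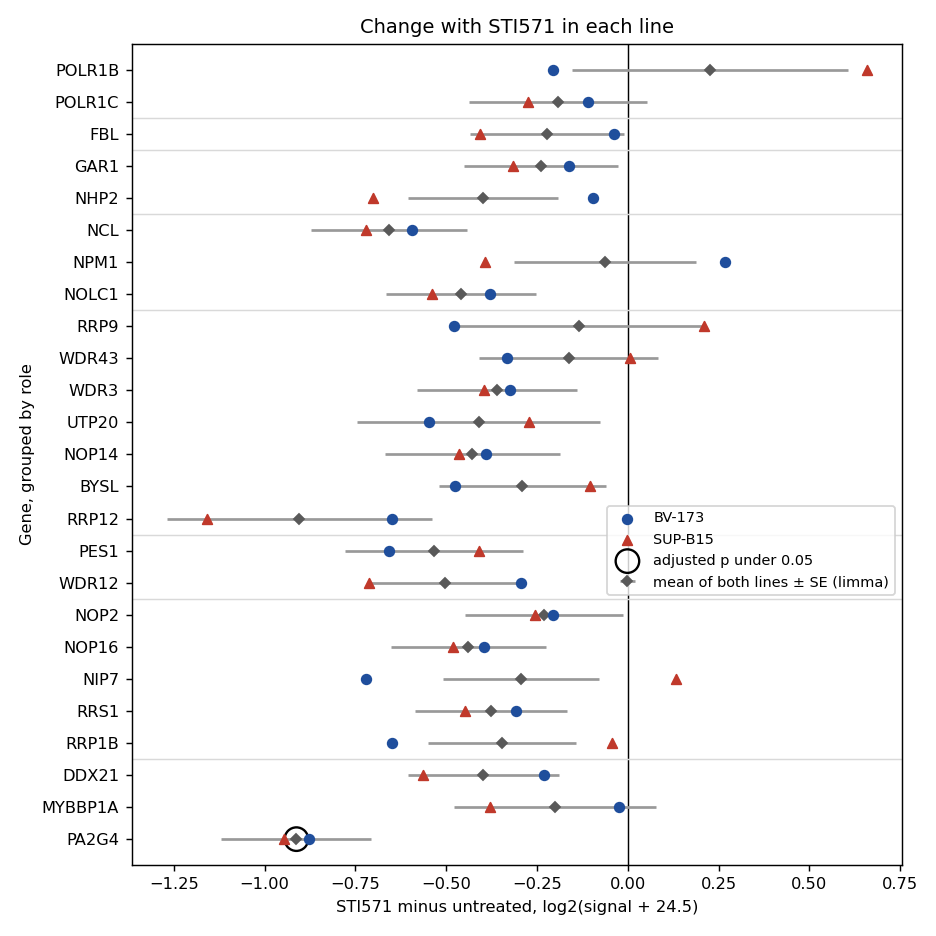
Change with STI571 on the log2(signal + 24.5) scale (x axis) for each gene (y axis, grouped by role). Circles are BV-173, triangles SUP-B15 and diamonds their mean with the SE from limma; the ring marks PA2G4 at -0.91, the gene with an adjusted p under 0.05, and 20 genes have both symbols left of 0.

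RNA polymerase I was represented by 2 subunits, neither of which passed the test. POLR1B, the second largest subunit of the catalytic core, gave 164 in STI571 BV-173, against 193 in untreated BV-173, and 301 in STI571 SUP-B15, against 181.5 in untreated SUP-B15. By the brightest probe set of each gene, POLR1B was the one measured gene at least 1.5-fold higher in a line, in SUP-B15. Its single probe set is one that the maker marked as possibly reading further transcripts. POLR1C, a subunit that polymerases I and III share, gave 891.5 with STI571 against 964 untreated in BV-173, and 419 with STI571 against 512 untreated in SUP-B15. Its mean change was -0.19 (SE 0.25), and its second probe set was also lower in both lines, by -0.28 and -0.61.

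In the authors' scaling, the snoRNP proteins differed little in BV-173 and were lower in SUP-B15. FBL (fibrillarin), the methyltransferase of box C/D snoRNPs, gave 14455 with STI571 against 14839 untreated in BV-173, and 4083 with STI571 against 5420.3 untreated in SUP-B15. NHP2, a core protein of box H/ACA snoRNPs, which guide pseudouridine formation, gave 5707 with STI571 against 6104 untreated in BV-173, and 4100.2 with STI571 against 6683 untreated in SUP-B15. GAR1, of the same particle, gave 1793.6 with STI571 against 2009 untreated in BV-173, and 1270.3 with STI571 against 1587 untreated in SUP-B15. All 3 had a treated signal below the untreated one in both lines, by 1.03-fold to 1.12-fold in BV-173 and 1.24-fold to 1.63-fold in SUP-B15. Adjusted p-values were 0.415 to 0.799 and whether the lines differed in response was not tested.

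Among the abundant nucleolar chaperones and phosphoproteins, NCL and NOLC1 were lower in both lines and NPM1 was not. NCL (nucleolin), which binds pre-rRNA and ribosomal chromatin, gave 9515 in STI571 BV-173, against 14367 in untreated BV-173, and 7344 in STI571 SUP-B15, against 12123 in untreated SUP-B15. Both treated arrays were below both untreated ones, so the groups did not overlap across the lines. The mean change of -0.66 (SE 0.22) missed the threshold (adjusted p = 0.0663), and passed it with quantile normalization (0.00605), with a common median (0.0206) and with a filter at the 75th percentile (0.044). NOLC1 (Nopp140), a chaperone of snoRNPs, gave 8187 with STI571 against 10647 untreated in BV-173, and 3352 with STI571 against 4881 untreated in SUP-B15 (adjusted p = 0.295). Its 2 dimmer probe sets had changes of -0.13 and 0.00 in BV-173 and -0.63 and -0.31 in SUP-B15.

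NPM1 (nucleophosmin), a histone and ribosome chaperone of the granular nucleolus, gave 39211 in STI571 BV-173, against 32572.5 in untreated BV-173, and 28055.5 in STI571 SUP-B15, against 36866 in untreated SUP-B15. BV-173 had a change of 0.27 and SUP-B15 one of -0.39, and 2 further probe sets had the same pair of signs (0.13 and -0.37, 0.14 and -0.73). By the brightest probe set of each gene, NPM1 was the one gene of the 25 with a higher treated signal in BV-173.

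Small subunit factors included the largest single response by the brightest probe sets, and several mixed ones. RRP12, an export and maturation factor of pre-40S particles, gave 319.8 with STI571 against 515.5 untreated in BV-173, and 69.1 with STI571 against 184.6 untreated in SUP-B15. It was 1.57-fold and 2.23-fold lower, with a mean change of -0.90 (SE 0.36, adjusted p = 0.202). The treated SUP-B15 signal was under that array's median, and of its 2 dimmer probe sets one was higher in both lines (0.64 and 0.47) and the other lower (-0.06 and -0.73). The direction of RRP12 thus rested on the probe set read.

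NOP14 and WDR3, parts of the processome that folds 18S rRNA, were lower in both lines by similar amounts. NOP14 gave 824 with STI571 against 1088 untreated in BV-173, and 461 with STI571 against 645 untreated in SUP-B15. WDR3 gave 1859.7 with STI571 against 2336 untreated in BV-173, and 572 with STI571 against 761 untreated in SUP-B15. Their mean changes were -0.43 (SE 0.24) and -0.36 (SE 0.22), and neither passed (adjusted p = 0.494 and 0.563). UTP20, a large scaffold of the processome, had a BV-173 change of -0.55 and a SUP-B15 change of -0.27, and BYSL (bystin), needed for late 18S processing, -0.48 and -0.10. The treated SUP-B15 signal was not lower for the other two. RRP9, a protein of the U3 snoRNP, gave 307 with STI571 against 438 untreated in BV-173, and 172 with STI571 against 146 untreated in SUP-B15. WDR43, a processome subunit, gave 708 with STI571 against 898.5 untreated in BV-173, and 534 with STI571 against 531 untreated in SUP-B15.

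The PeBoW complex (PES1, BOP1 and WDR12) is needed for the maturation of large subunit rRNA, and both measured subunits were lower with STI571 in both lines. PES1 gave 665.5 in STI571 BV-173, against 1064 in untreated BV-173, and 462.5 in STI571 SUP-B15, against 622 in untreated SUP-B15. WDR12 gave 2732 with STI571 against 3353 untreated in BV-173, and 992 with STI571 against 1640.5 untreated in SUP-B15. The larger difference was in BV-173 for PES1, 1.58-fold lower, and in SUP-B15 for WDR12, 1.64-fold lower. Their mean changes were -0.53 (SE 0.24) and -0.50 (SE 0.21), with adjusted p = 0.308 and 0.222.

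Of the other 60S factors, 4 of 5 were lower in both lines and 0 passed the test (limma; NOP16 alone had an unadjusted p under 0.05, 0.039). NOP16, a nucleolar 60S assembly protein, gave 1922 with STI571 against 2538 untreated in BV-173, and 891 with STI571 against 1254 untreated in SUP-B15. A second bright probe set of NOP16 gave changes of -0.78 and -0.47, while 2 dim ones were higher in BV-173 (0.92 and 1.07) and lower in SUP-B15 (-1.25 and -0.62). RRS1, which brings the 5S particle into the pre-60S, gave 2897 with STI571 against 3593 untreated in BV-173, and 869 with STI571 against 1194 untreated in SUP-B15. NOP2, a methyltransferase of 28S rRNA, gave 1489 with STI571 against 1719.8 untreated in BV-173, and 998 with STI571 against 1197 untreated in SUP-B15.

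RRP1B and NIP7 were lower in BV-173 with little or no gap in SUP-B15. RRP1B, a nucleolar protein of the RRP1 family, gave 3712.5 with STI571 against 5839 untreated in BV-173, and 1882.5 with STI571 against 1939 untreated in SUP-B15. NIP7, which acts in pre-60S assembly in yeast, gave 1290.7 with STI571 against 2142 untreated in BV-173, and 1254 with STI571 against 1140.5 untreated in SUP-B15. By the brightest probe sets, NIP7 was 1.65-fold lower in BV-173, the largest fold there after PA2G4, with a change of 0.13 in SUP-B15. A second RRP1B probe set, near the array median, had a BV-173 change of -1.25 and a SUP-B15 change of 0.35.

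The remaining nucleolar regulators were lower in both lines, mainly in SUP-B15 in the authors' scaling. DDX21, an RNA helicase that binds rRNA and snoRNAs, gave 7974 with STI571 against 9361 untreated in BV-173, and 3698 with STI571 against 5481 untreated in SUP-B15. MYBBP1A, a nucleolar protein that represses ribosomal gene transcription, gave 475.5 with STI571 against 484 untreated in BV-173, and 320.4 with STI571 against 424 untreated in SUP-B15. Neither passed the test (adjusted p = 0.426 and 0.885). Over the 24 genes that did not pass, mean changes ran from -0.90 to 0.23 and adjusted p-values from 0.0663 to 0.968, and a miss does not show that a gene did not change.

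MYC, a transcription factor for many of these genes, was set beside them. It gave 26044.5 in STI571 BV-173, against 25862 in untreated BV-173, and 2805 in STI571 SUP-B15, against 8187 in untreated SUP-B15, so its change was 0.01 and -1.54. Its mean change over both lines was called (-0.76, SE 0.22, adjusted p = 0.0201), came from SUP-B15, and lost the call with no filter (0.114) and with averaged probe sets (0.223), among other settings. Of the 25 nucleolar genes, 24 were lower with STI571 in BV-173 and 21 in SUP-B15, against 46.4% and 51.3% of all genes. The part of MYC in these differences was not tested.

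The rest of the pathway was read from lists of genes that are not among the 33. Over all genes, 26.5% were lower in both lines, 28.9% were higher in both and 1.63% were called lower. An unadjusted p under 0.05 was reached by 979 of all 7916 genes (limma). Of 33 further small subunit factors, 16 were lower in both lines and 3 higher, and 0 were called (limma; 6 at an unadjusted p under 0.05). RRP7A, a processome protein, gave 719 with STI571 against 1170.2 untreated in BV-173, and 244 with STI571 against 468 untreated in SUP-B15 (adjusted p = 0.0656), and TSR1, a pre-40S factor, had changes of -0.53 and -0.71 (adjusted p = 0.145). Of 34 further 60S factors, 12 were lower in both lines and 5 higher. One of them was called, MRTO4, a placeholder for the stalk protein P0, which fell to 839.9 in STI571 BV-173, against 1309 in untreated BV-173, and to 586 in STI571 SUP-B15, against 1066 in untreated SUP-B15 (adjusted p = 0.0481). This call lay at the threshold and ended, among other settings, with quantile normalization (0.0754), with a common median (0.21) and with no filter (0.053).

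Polymerase I factors (11 measured), snoRNP cores and assembly factors (9), the nuclear exosome (9) and export and cytoplasmic maturation (6) had 0 called genes each (limma; 1, 1, 1 and 0 at an unadjusted p under 0.05). Their counts of genes lower in both lines were 5, 5, 5 and 2, and those of genes higher in both were 2, 1, 2 and 2, against 26.5% and 28.9% of all genes. TCOF1 (treacle), a polymerase I cofactor, had a BV-173 change of -0.60 and a SUP-B15 change of -0.69, and TAF1C, of its promoter factor SL1, -0.97 and -0.09. SNU13, the C/D box binding protein, had -0.54 and -0.36, and the snoRNP assembly helicase RUVBL1 -0.37 and -0.41. The exosome subunit EXOSC5 had 0.02 and -1.15 and EXOSC4 -0.36 and -0.40. The ribosome recycling factor ABCE1 had -0.20 and -0.43, while the exportin XPO1 was higher in both lines (0.13 and 0.41).

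RNA polymerase III transcribes 5S rRNA. Of its 15 measured subunits and factors, 6 were lower in both lines and 4 higher, against 26.5% and 28.9% of all genes. POLR3G, a subunit typical of undifferentiated and transformed cells, was the one called. It fell to 597 in STI571 BV-173, against 892 in untreated BV-173, and to 66.3 in STI571 SUP-B15, against 236 in untreated SUP-B15 (mean change -1.04, SE 0.31, adjusted p = 0.0304). The treated SUP-B15 signal was under that array's median of 106.6. The POLR3G call ended with no filter (0.125) and with averaged probe sets (0.231), among other settings.

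Ribosomal protein genes, the structural partners of rRNA, had smaller changes than the nucleolar factors, with 0 of 52 called (limma; 0 at an unadjusted p under 0.05). BV-173 gave them a median change of 0.19 and SUP-B15 one of -0.12. These signs depended on the scaling and turned with quantile normalization (-0.01 and 0.01). With a common median they were 0.02 and -0.02. RPLP2 had -0.23 and 0.76 and RPS14 0.30 and 0.03. The median of the 25 nucleolar genes was negative in both lines under each of these scalings, -0.31 and -0.40 with quantile normalization and -0.50 and -0.29 with a common median, which itself moved the median of all genes to -0.11 in BV-173 and 0.09 in SUP-B15.

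**Figure D3:**
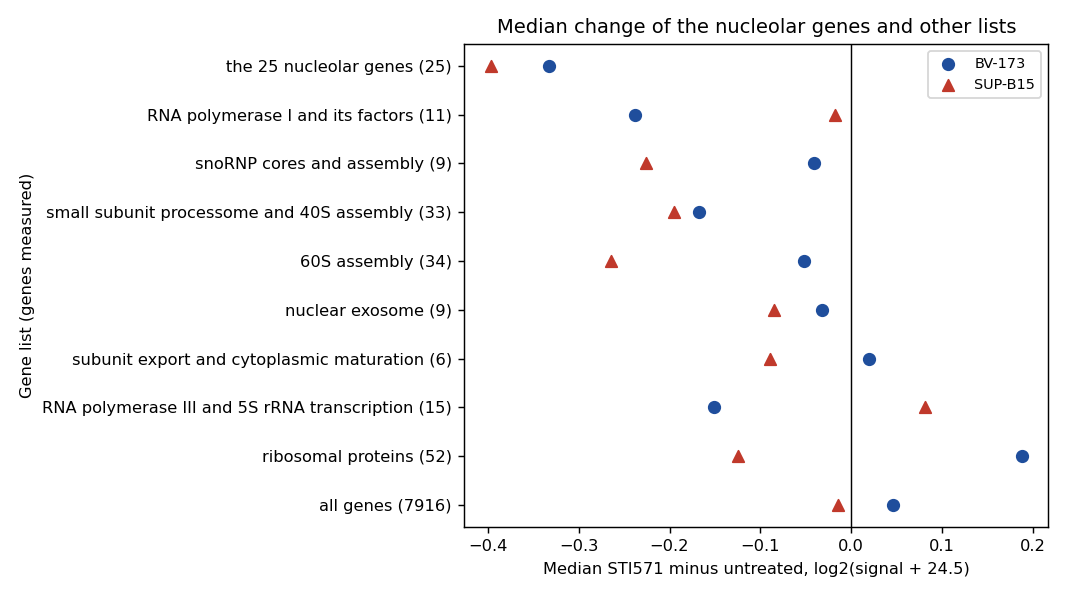
Median change with STI571 on the log2(signal + 24.5) scale (x axis) for the 25 nucleolar genes, for further lists of ribosome production and for all genes (y axis, with the number measured). Circles are BV-173 and triangles SUP-B15; the 25 genes have medians of -0.33 and -0.40, beside 0.19 and -0.12 for ribosomal proteins.

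The second comparison set SUP-B15 against BV-173. The nucleolar genes had lower signal in SUP-B15. In the same limma fit, with treatment as a term, 15 of the 25 genes were called lower in SUP-B15 and 0 higher, against 14.5% of all genes called in each direction (1146 lower and 1150 higher). The median difference was -0.77 on the log2 scale, beside -0.03 over all genes. For 20 of the 25 genes both SUP-B15 signals lay below both BV-173 signals, against 30.9% of all genes. The exceptions were POLR1B, NHP2, NCL, NPM1 and UTP20. Among the further lists, called lower in SUP-B15 were 13 of 33 small subunit factors and 15 of 34 60S factors. The counts were 4 of 9 for snoRNP, 4 of 9 for exosome and 3 of 6 for export genes. They were 5 of 15 for polymerase III, 3 of 11 for polymerase I and 3 of 52 for ribosomal proteins. Called higher in these lists were 1 small subunit factor and 2 polymerase I factors.

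The largest differences were those of RRS1, FBL, WDR3 and RRP12. RRS1 gave 869 and 1194 in STI571 and untreated SUP-B15, against 2897 and 3593 in STI571 and untreated BV-173, a difference of -1.64 (SE 0.21, adjusted p = 1.78e-13). FBL gave 4083 and 5420.3 in SUP-B15, against 14455 and 14839 in BV-173 (-1.63, SE 0.21, adjusted p = 3.73e-13). WDR3 gave 572 and 761 in SUP-B15, against 1859.7 and 2336 in BV-173 (-1.62, SE 0.22). RRP12 had a difference of the same size, -1.62, with a wider error (SE 0.36), and averaging its probe sets ended the call (adjusted p = 0.0689). Adjusted p-values of RRS1 and FBL were 0.0356 and 0.0396 in the limma fit without the intensity trend. The repeats of a line were its treated and untreated arrays, so these p-values do not measure the spread between cultures of a line. Without treatment, BV-173 gave 2.97-fold the signal of SUP-B15 for RRS1, 2.73-fold for FBL and 3.01-fold for WDR3.

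RRP1B, WDR12, NOLC1, PA2G4, RRP9 and NOP16 were called with differences of -1.27 to -1.05, and POLR1C, DDX21, NOP14, PES1 and NOP2 with -0.96 to -0.54. The calls thus covered polymerase I, box C/D, processome, PeBoW and 60S factors. In a limma fit of single probe sets, the second one of RRP1B (adjusted p = 0.665) and the dimmest kept one of NOP16 (0.660) were not called. The further probe sets of NOLC1, PA2G4 and POLR1C were called lower. Averaged probe sets gave RRP1B -0.79 and NOP16 -0.91, both still called (adjusted p = 0.0249 and 0.0074). NOP2 and PES1 lay near the threshold (adjusted p = 0.045 and 0.0379), and each lost its call under 4 alternatives. Without the intensity trend the calls were 4, RRS1, FBL, WDR3 and RRP12. The 10 genes not called differed by -0.56 to 0.35, with adjusted p-values from 0.0622 up to 0.873. Among them NPM1 had -0.15 (SE 0.25), NCL -0.31 (SE 0.22), and the box H/ACA proteins NHP2 -0.17 (SE 0.21) and GAR1 -0.41 (SE 0.21). The third probe set of NPM1 differed more than the one tested, with 3953 and 6571.5 in STI571 and untreated SUP-B15, against 13532 and 12252 in STI571 and untreated BV-173.

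The difference was present in each treatment state. Untreated SUP-B15 was at least 1.5-fold below untreated BV-173 for 17 of the 25 genes, against 20.6% of all genes, and above it by that much for 0. With STI571 in both lines the counts were 13, against 26.4% of all genes, and 1, POLR1B. The median difference was -0.77 without STI571 and -0.75 with it. Between the untreated arrays the mean 28S control signal also differed, at 2532 in SUP-B15 against 4745 in BV-173. This came mostly from the middle one of its 3 probe sets, at 4231 in SUP-B15 against 11072.5 in BV-173. The 5' one was higher in SUP-B15 (3347 against 3111), and the 3' one was dim in both (19.6 against 52.3). The mean 18S signal was 1577 in SUP-B15 against 1596 in BV-173. The part of these controls in the line difference was not tested. MYC was also lower in SUP-B15 (-2.43, SE 0.22), as given by its 4 signals above.

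**Figure D4:**
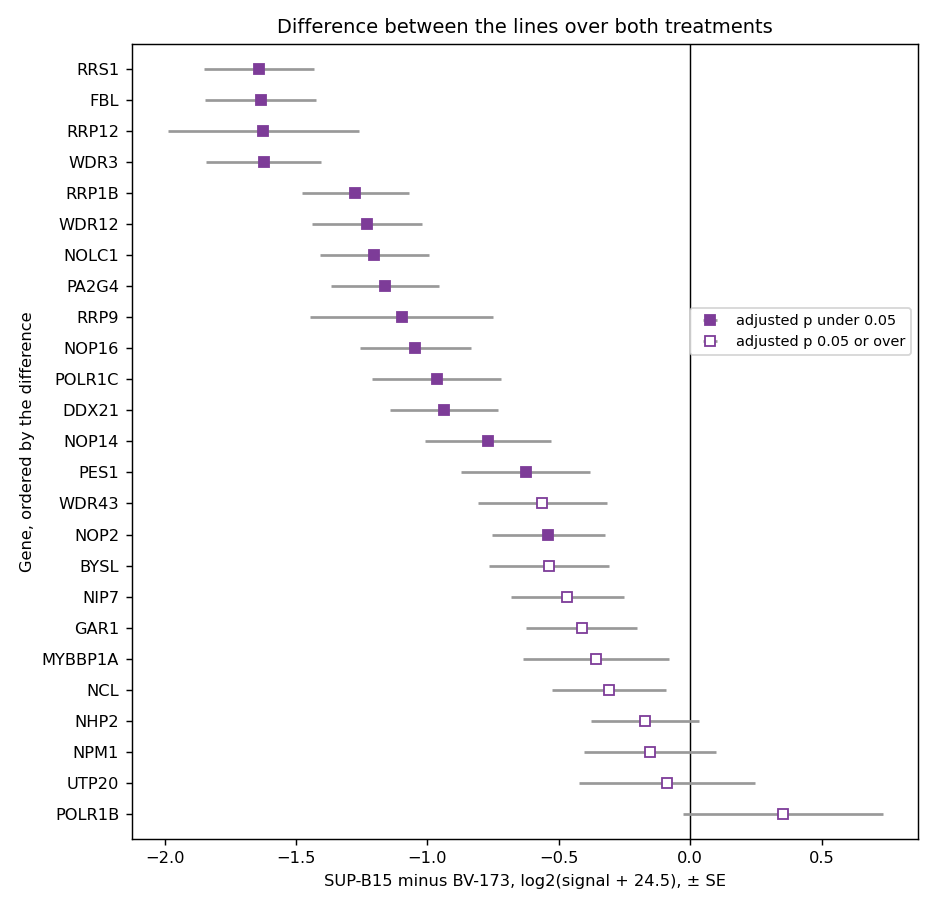
Difference of SUP-B15 minus BV-173 over both treatment states on the log2(signal + 24.5) scale (x axis, with SE from limma) for each gene (y axis, ordered by size). Filled squares are the 15 genes with an adjusted p under 0.05, from RRS1 at -1.64 to NOP2 at -0.54; POLR1B is the one gene right of 0.

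The genes with and without an E box were set side by side, as a description. The 11 genes with CACGTG in a window had mean STI571 changes from -0.53 to -0.13 with a median of -0.24. Those of the 10 without it ran from -0.91 to 0.23 with a median of -0.38. The differences between the lines ran from -1.63 to -0.09 (median -0.56) with the motif and from -1.62 to 0.35 (median -0.72) without it. The 2 ranges overlapped in both comparisons, and 6 and 5 of the genes were called lower in SUP-B15.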

How the data were processed

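Total RNA from 4 cultures was hybridised to Affymetrix arrays, per the labels' protocols. The authors deposited 1 linear signal intensity for each probe set, and the submitters' processing notes name GCOS 1.3. The 2%-trimmed mean of each of the authors' columns was 500.2, so arrays had been scaled one by one. The scaling target and probe summary were not stated in those sources, and detection calls were not used.

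Of 22277 probe sets, 62 were controls and 19064 had 1 gene symbol, 1043 several and 2108 none. Only those with 1 symbol were used, and 19052 matched RefSeq by Entrez ID. Signals were taken as log2(signal + 24.5), the 25th percentile of all signals. Probe sets below the median of every array were dropped, and the one of highest mean signal stood for its gene (7916 of 11963 genes). One limma 3.58.1 fit (R 4.3.3) to all 4 arrays had cell line and treatment as terms, an intensity trend and two-sided tests, adjusted by Benjamini-Hochberg over all 7916 genes. Single lines, with 1 array per group, have values and no test. On 5 simulated data sets of 7916 genes, the STI571 test of an effect shared by both lines recovered 49.6% of 2-fold and 79.8% of 4-fold changes. Of its calls, 9.95% were false. These figures describe simulated data alone, and do not give the recovery of responses that differ between the lines.

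The members and lists were chosen with earlier results of these data known. All 33 genes are named; from each further list, the up to 4 called genes of largest mean change, or the 2 largest where 0 were called, are named. Motifs and promoters came from RefSeq windows. Alternatives were 2 normalizations, 2 pseudocounts, 2 filters, 3 ways to use probe sets and 3 forms of the fit; leaving out the dimmest 25% of genes was added after seeing the data.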

Additional observations from a re-analysis of the deposited data

Results flagged for a closer look

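For 5 of the 25 nucleolar genes the single arrays moved in opposite directions in the 2 lines. POLR1B had -0.21 in BV-173 and 0.66 in SUP-B15, RRP9 -0.48 and 0.21, WDR43 -0.33 and 0.0070, and NIP7 -0.72 and 0.13. NPM1 had the reverse order of signs, 0.27 in BV-173 and -0.39 in SUP-B15. None of these differences was tested, since each rests on 1 array per group.

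Outside the gene measurements, the mean 18S rRNA control signal was 1.76-fold higher with STI571 in BV-173 and 0.959-fold in SUP-B15. The mean 28S control signal was 1.21-fold higher with STI571 in BV-173 and 1.42-fold higher in SUP-B15. The 28S probe sets differed, with ratios of 0.971, 1.27 and 2.70 in BV-173 and 0.915, 1.80 and 4.91 in SUP-B15. The largest ratio in each line was that of the dimmest probe set. It gave 141.3 with STI571 against 52.3 untreated in BV-173, and 96.2 with STI571 against 19.6 untreated in SUP-B15.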

How the results depend on the processing

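The count of nucleolar genes called lower for STI571 was small and moved with the processing. It was 1 as reported, 2 with quantile normalization, a common median or a filter at the 75th percentile (NCL joined PA2G4), and 0 where probe sets were averaged, where only gene-specific ones were used, where the trend was left out and where the cell line term was left out (limma; 5, 5, 2 and 0 genes at an unadjusted p under 0.05). PA2G4 kept its call in 9 of 13 alternatives (adjusted p = 0.000397 to 0.99994). With gene-specific probe sets 15 of the genes were measured, of which 13 were lower in both lines, and 3 and 2 were at least 1.5-fold lower in BV-173 and SUP-B15. A common median gave a median change of -0.50 to BV-173 and of -0.29 to SUP-B15. The 15 genes called lower in SUP-B15 became 4 without the intensity trend. No mean change or line difference of the 25 genes turned sign in the alternatives run. Over all genes, the STI571 calls numbered 129 lower and 113 higher as reported, 96 and 61 with a common median, 61 and 55 with averaged probe sets, 74 and 63 with gene-specific probe sets, 184 and 164 in the probe set level fit, and 0 without the intensity trend or the cell line term (669 and 73 at an unadjusted p under 0.05). No group could be run without a replicate, as each holds 1 array. The fit as reported pairs the arrays by cell line, and the fit without the cell line term is its unpaired alternative.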
